A study of Mus musculus with 4 samples.

Results

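Titin, the Z-disc and the M-band form the scaffold that holds the filaments of heart muscle in register. The genes described are the 9 whose name in the deposited tables is Ttn, Tcap, Ldb3, Actn2, Myoz2, Myot, Nebl, Myom1 or Myom2, out of 55382 genes. Each name stands on 1 Ensembl gene, and all 9 passed the filter on low values. The libraries are ribosome profiling (sequencing of mRNA fragments protected by ribosomes) of mouse hearts taken 15 days after birth. Of the 4 libraries, 2 are from mice with a conditional Nat10 knockout (KO; NAT10-CKO in the design text). Nat10 codes for the enzyme that puts acetyl groups on cytidines of RNA. The other 2 come from NAT10-FF mice, whose titles and genotype labels say WT. The sources used here do not give the Cre driver, the deleted exons, the strain and sex of the mice, or whether a library came from 1 heart or a pool. The labels name the heart as tissue and cardiomyocytes as cell type, while the protocols describe whole heart tissue.

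In a sarcomere, titin runs as 1 elastic molecule from the Z-disc, where actin filaments of neighbouring sarcomeres are crosslinked, to the M-band, where myosin filaments are crosslinked. Alpha-actinin (Actn2) is the crosslinker of the Z-disc, and telethonin (Tcap) caps the ends of titin there. Myomesins (Myom1 and Myom2) tie titin and myosin together at the M-band. Several of these genes are mutated in human cardiomyopathies.

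Footprint levels are in FPKM, a unit that divides fragments by the length of the gene and the total of the library. It is meant to make levels of different genes comparable, but the sources used here do not give the gene length used. Orders of level between genes are therefore approximate. The deposited translation efficiency (TE) is a ratio of footprint to RNA level. Dividing the footprint FPKM by the TE gave the RNA level in FPKM that the ratio was made with, called the RNA level here. Changes are log2 differences, KO minus WT, of FPKM + 1 for footprints and of the value itself for RNA and TE. They were tested with limma over 15031 genes for footprints and 12529 genes for RNA and TE, and called at a Benjamini-Hochberg adjusted p of 0.05. With 2 libraries in each group, an exact permutation test of 1 gene cannot go below p = 0.333. The labels do not say that replicates are separate animals, so the p-values measure the spread between libraries, which may be technical.

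The libraries held 16425 to 16900 genes with a footprint level above 0. Their depth in reads is unknown, and 48.9% to 57.0% of the summed FPKM lay in mitochondrial tRNA genes. Nat10 itself read 40.01 and 52.1 FPKM in KO and 77.3 and 73.9 FPKM in WT (log2 difference -0.71, adjusted p = 0.295). Most genes read higher in KO: the median log2 change over all tested genes was 0.36 for footprints, 0.22 for RNA and 0.15 for TE. Footprint changes of the 9 genes are therefore also given after median-ratio scaling of the libraries. The atrial light chain Myl7 had 312 and 47.6 FPKM in KO replicates 1 and 2 and 59.8 and 162 FPKM in WT replicates 1 and 2. Its RNA level was 44.1 and 0.25 FPKM in KO and 0.26 and 94.2 FPKM in WT, so KO replicate 1 and WT replicate 2 held the higher values in both measures. The part of atrial tissue in the results was not tested.

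Promoter windows of RefSeq (250 bases before to 50 bases after a transcript start, GRCm38.p6) were used for 6 of the 9 genes, matched by symbol. The 4 printed were picked, with the results known, as pairs that share a muscle motif: Ttn with Myoz2, and Ldb3 with Myom1. In footprints the first gene of each pair read lower in both KO libraries and the other overlapped. Nebl, which has a CArG box in a window not printed, read lower in both KO libraries as Ldb3 did. Whether a motif goes with a change was not tested. The windows were searched on both strands for the MEF2 box, the CArG box (bound by serum response factor), the TEAD core CATTCC, the GATA core AGATAA and the TATA box TATAAA. No match overlapped another in the windows shown. Of 32851 windows of that length, 0.557% hold a MEF2 box, 1.63% a CArG box, 14.7% the TEAD core, 11.2% the GATA core and 13.6% the TATA box. A match is a run of letters, not a shown binding site. Capitals mark the matches in 4 windows, each read 5′ to 3′ along its gene.
Ttn (chr2:76982498-76982797, minus strand, MEF2 box and TEAD core): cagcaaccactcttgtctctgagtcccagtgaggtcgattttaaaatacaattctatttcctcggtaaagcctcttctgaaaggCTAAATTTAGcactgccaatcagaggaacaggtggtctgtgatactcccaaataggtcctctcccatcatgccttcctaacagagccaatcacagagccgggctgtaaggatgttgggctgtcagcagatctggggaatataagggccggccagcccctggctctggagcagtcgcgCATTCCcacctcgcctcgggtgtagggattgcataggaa
Myoz2 (chr3:123034938-123035237, minus strand, MEF2 box): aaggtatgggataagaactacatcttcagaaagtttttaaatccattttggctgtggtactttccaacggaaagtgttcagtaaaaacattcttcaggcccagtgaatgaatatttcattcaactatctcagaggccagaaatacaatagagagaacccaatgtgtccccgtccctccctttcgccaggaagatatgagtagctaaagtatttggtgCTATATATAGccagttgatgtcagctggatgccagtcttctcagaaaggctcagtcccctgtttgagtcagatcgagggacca
Ldb3 (chr14:34588632-34588931, minus strand, CArG box, first of 2 windows): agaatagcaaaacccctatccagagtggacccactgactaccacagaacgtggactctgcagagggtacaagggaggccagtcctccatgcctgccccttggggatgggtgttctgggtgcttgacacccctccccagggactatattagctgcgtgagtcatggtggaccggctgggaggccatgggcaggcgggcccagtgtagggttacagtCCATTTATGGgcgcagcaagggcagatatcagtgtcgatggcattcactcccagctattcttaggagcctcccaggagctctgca
Myom1 (chr17:71019307-71019606, plus strand, GATA core on the opposite strand and CArG box): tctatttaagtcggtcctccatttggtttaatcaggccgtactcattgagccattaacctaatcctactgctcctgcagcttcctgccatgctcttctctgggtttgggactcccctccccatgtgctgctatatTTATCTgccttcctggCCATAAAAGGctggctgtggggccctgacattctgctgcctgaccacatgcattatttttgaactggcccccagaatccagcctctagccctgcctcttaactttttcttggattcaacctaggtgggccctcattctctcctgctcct
The MEF2 box thus stands 166 bases before the start of Ttn and 33 bases before that of Myoz2. The CArG box stands 35 bases before the transcript start of the Ldb3 window shown, and 109 before that of the other Ldb3 window. In the Myom1 window it stands 99 bases before the transcript start. The windows of Ldb3, Myom1 and Nebl lie inside the gene spans given below, so these starts are not the outermost of their genes. The Actn2 window held none of the 5 motifs, and among the 4 windows of Nebl 1 held a CArG box, 1 a GATA core, 1 a TEAD core with a GATA core, and 1 none. No window of the 6 genes held the TATA box letters.

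Titin and its cap had fewer footprints in KO. Ttn (ENSMUSG00000051747, chromosome 2, 76703980 to 76982557 in GRCm38), the giant elastic filament, had 160.1 and 281 FPKM of footprints in KO and 511 and 521 FPKM in WT. The 2 groups did not overlap, and the WT libraries differed from each other by far less than the KO libraries did. The log2 change was -1.28 (SE 0.31), or 2.43-fold lower, which missed the threshold (adjusted p = 0.175 by limma). A lower log2 change was found for 2.61% of tested genes. RNA stood at 27.3 and 43.5 FPKM in KO and 51.2 and 43.96 FPKM in WT, so KO replicate 2 came close to WT replicate 2. The RNA change was -0.46 (SE 0.27, adjusted p = 0.301 by limma). Without KO replicate 2 it was -0.80, and without KO replicate 1 it was -0.12. The TE of Ttn was 5.87 and 6.45 in KO and 9.99 and 11.8 in WT, without overlap (log2 change -0.82, SE 0.42, adjusted p = 0.828).

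Tcap (ENSMUSG00000007877, chromosome 11, 98383811 to 98384953), the telethonin gene, was the only one of the 9 with a change past the threshold, and that was in RNA. Implied RNA was 119 and 196 FPKM in KO and 388 and 520.5 FPKM in WT. It fell 2.94-fold (log2 change -1.55, SE 0.31, adjusted p = 0.044 by limma). The call was lost without WT replicate 2 (adjusted p = 0.099), where the log2 change was still -1.34, in genes of at least 10 FPKM in all libraries (0.053) and with no mean-variance trend (0.083). Leaving out either KO library or WT replicate 1 gave a log2 change of -1.91 to -1.19. Footprints on Tcap numbered 342 and 356 FPKM in KO and 799 and 1101 FPKM in WT, 2.68-fold lower (log2 change -1.42, SE 0.24, adjusted p = 0.114). The KO libraries were close to each other and the groups were far apart. That footprint difference passed when small RNA genes, pseudogenes and unnamed models were left out of the test (adjusted p = 0.025), and in genes of at least 10 FPKM in all libraries (adjusted p = 0.033). The TE of Tcap overlapped between groups, at 2.87 and 1.81 in KO and 2.06 and 2.11 in WT (log2 change 0.13, adjusted p = 0.986). Tcap thus read about as much lower in RNA as in footprints, whereas for Ttn the footprint difference was the larger one.

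**Figure D1:**
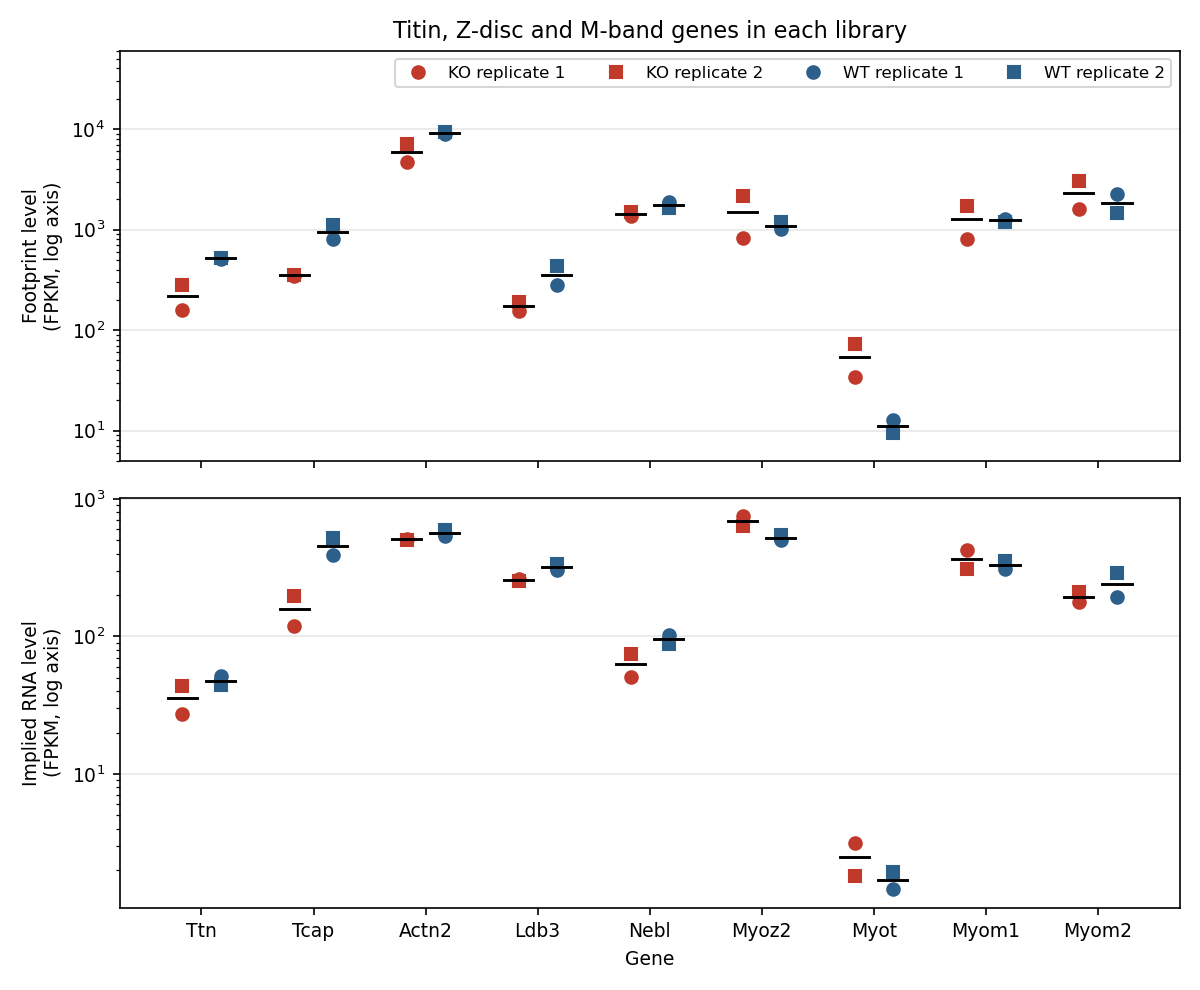
Footprint level (top) and implied RNA level (bottom) of the 9 genes in FPKM on log axes, with KO left of WT. Circles are replicate 1, squares replicate 2 and bars the mean of 2 libraries. Footprints on Ttn, Tcap, Actn2, Ldb3 and Nebl lie lower in both KO libraries, those on Myot lie higher, and those on Myoz2, Myom1 and Myom2 overlap.

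Actn2, Ldb3 and Nebl had fewer footprints in both KO libraries, to different degrees, and none of these changes passed. Actn2 (ENSMUSG00000052374, chromosome 13, 12269426 to 12340732) had 4668 and 7074 FPKM in KO and 8869.9 and 9305 FPKM in WT (log2 change -0.66, SE 0.29, adjusted p = 0.309 by limma). Its RNA level hardly differed, at 512 and 502 FPKM in KO and 540.5 and 591 FPKM in WT (log2 change -0.16, adjusted p = 0.677). The TE of Actn2 was 9.12 and 14.1 in KO and 16.4 and 15.7 in WT (log2 change -0.50, adjusted p = 0.906), so the groups stood apart in TE but did not pass.

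Ldb3 (ENSMUSG00000021798, chromosome 14, 34526699 to 34590314) codes for ZASP, also called Cypher, a PDZ and LIM domain protein that binds alpha-actinin. It had 155 and 190.2 FPKM of footprints in KO and 279 and 435 FPKM in WT (log2 change -1.01, SE 0.30, adjusted p = 0.213 by limma). The groups did not overlap, and the KO libraries were closer to each other than the WT libraries were. For RNA the values were 261 and 255 FPKM in KO and 304 and 334 FPKM in WT (log2 change -0.31, SE 0.21, adjusted p = 0.375). Ldb3 had the lowest TE of the 9 genes in both groups, at 0.59 and 0.75 in KO and 0.92 and 1.302 in WT (log2 change -0.71, adjusted p = 0.893).

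Nebl (ENSMUSG00000053702, chromosome 2, 17342673 to 17734949) codes for nebulette, an actin-binding relative of nebulin in cardiac Z-discs. It had 1372 and 1510.1 FPKM of footprints in KO and 1862 and 1627 FPKM in WT (log2 change -0.27, SE 0.21, adjusted p = 0.522 by limma). RNA stood at 50.6 and 75.1 FPKM in KO and 102.6 and 87.4 FPKM in WT (log2 change -0.62, SE 0.25, adjusted p = 0.171). Without KO replicate 2 the RNA change was -0.90, and without KO replicate 1 it was -0.34. Nebl was the reverse of Ttn, Actn2 and Ldb3 in TE: 27.1 and 20.1 in KO lay above 18.2 and 18.6 in WT (log2 change 0.34, SE 0.46, adjusted p = 0.937).

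The alpha-actinin partners Myoz2 and Myot did not read lower in both KO libraries. Myoz2 (ENSMUSG00000028116, chromosome 3, 123006206 to 123035003) codes for calsarcin, which binds alpha-actinin and the phosphatase calcineurin. It had 832 and 2136 FPKM of footprints in KO and 1009 and 1181 FPKM in WT. The WT values lay between the KO values, so the sign of the log2 change (0.29, SE 0.45, adjusted p = 0.768 by limma) hung on 1 library: it was -0.39 with KO replicate 2 left out and 0.97 with KO replicate 1 left out. Its RNA level was higher in both KO libraries, at 747 and 634 FPKM in KO and 499 and 544 FPKM in WT (log2 change 0.40, SE 0.24, adjusted p = 0.308).

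Myot (ENSMUSG00000024471, chromosome 18, 44334053 to 44355740) codes for myotilin, an actin-bundling Z-disc protein known mainly from skeletal muscle. It had 34.3 and 72.5 FPKM of footprints in KO and 12.7 and 9.55 FPKM in WT, 4.25-fold higher in KO. No KO library overlapped with WT, with a log2 change of 2.09 (SE 0.49) that missed the threshold (adjusted p = 0.164 by limma). Its RNA level was low and overlapped, at 3.14 and 1.80 FPKM in KO and 1.45 and 1.93 FPKM in WT (log2 change 0.51, adjusted p = 0.419). The TE of Myot, 10.9 and 40.3 in KO and 8.72 and 4.95 in WT (log2 change 1.67, SE 0.70, adjusted p = 0.806), divides by this low RNA level. Summed footprints on 11 skeletal muscle markers were 62.3 and 35.8 FPKM in KO and 76.9 and 58.5 FPKM in WT, and none of the 11 was listed at 0 in all 4 libraries. A single marker held up to 62.6 FPKM, and of the 6 that passed the filter 4 had a log2 change above 0. Over all tested genes, 28.9% had a footprint change below 0. The part of skeletal muscle RNA in the level of Myot was not tested.

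The M-band genes overlapped between groups in every measure. Myom1 (ENSMUSG00000024049, chromosome 17, 71003332 to 71126856), the myomesin present in all striated muscle, had 813 and 1711 FPKM of footprints in KO and 1288 and 1199 FPKM in WT (log2 change -0.08, SE 0.37, adjusted p = 0.932 by limma). Without KO replicate 1 this was 0.46 and without KO replicate 2 it was -0.61. Implied RNA was 425 and 312 FPKM in KO and 310.1 and 356 FPKM in WT (log2 change 0.13, adjusted p = 0.757). Myom2 (ENSMUSG00000031461, chromosome 8, 15057653 to 15133420), which codes for M-protein, had 1584 and 3025 FPKM of footprints in KO and 2239 and 1469.7 FPKM in WT (log2 change 0.27, SE 0.38, adjusted p = 0.743). For RNA the values were 179 and 208 FPKM in KO and 192 and 288 FPKM in WT (log2 change -0.28, adjusted p = 0.513). In footprints the KO libraries of both genes differed from each other by more than the group means did.

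Counted over the 9 genes, footprints lay lower in both KO libraries for 5 (Ttn, Tcap, Actn2, Ldb3 and Nebl), higher in both for 1 (Myot) and overlapped for 3. Of all tested genes, 12.1% had both KO libraries below both WT libraries and 39.5% had both above. None of the 9 passed for footprints, where 0.379% of all tested genes were called. In RNA, 5 lay lower in both KO libraries (the same 5), 1 higher (Myoz2) and 3 overlapped, against 18.6% lower and 44.2% higher over all tested genes. Of the 9, 1 was called in RNA (Tcap, lower in KO), where 5.73% of all tested genes were called, 1.53% as lower and 4.20% as higher in KO. An unadjusted p under 0.05 was found for 4 of the 9 in footprints (17.3% of all tested genes), 2 in RNA (28.3%) and 0 in TE (6.06%). The log2 change was below 0 for 6 of the 9 in footprints (28.9% of all tested genes), 6 in RNA (35.4%) and 5 in TE (40.5%). In TE, 3 lay lower (Ttn, Actn2 and Ldb3), 2 higher (Nebl and Myot) and 4 overlapped, against 12.0% lower and 24.0% higher over all tested genes. No gene of the 12529 was called in TE (0.00% called), and 759 had an unadjusted p under 0.05. The median change of the 9 genes was -0.27 for footprints, -0.28 for RNA and -0.11 for TE, against 0.36, 0.22 and 0.15 over all tested genes. The 9 were chosen with earlier results of these data known, so these counts describe them and test nothing.

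**Figure D2:**
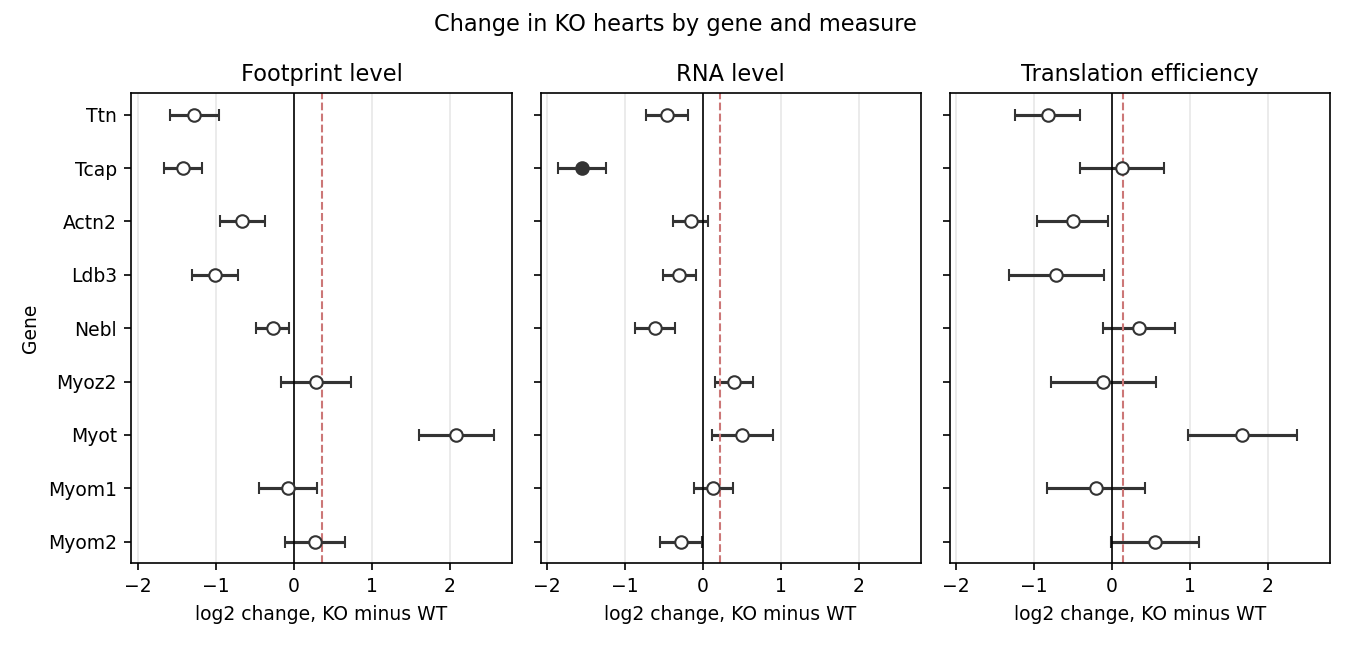
Log2 change, KO minus WT, of footprint level, RNA level and translation efficiency for the 9 genes. Points are limma's estimates, bars their standard errors, the filled point the change with adjusted p under 0.05, and dashed lines the median of all tested genes. Tcap lies at -1.42 in footprints and -1.55 in RNA, whereas Ttn lies at -1.28 in footprints and -0.46 in RNA.

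After median-ratio scaling, 8 of the 9 genes had a footprint change below 0, against 48.0% of all tested genes. In RNA 7 of the 9 then lay below 0 (49.7% of all tested genes), among them Tcap at -1.77 (adjusted p = 0.029 by limma), and in TE 6 (50.0%). Tcap then stood at -1.80, Ttn at -1.65, Ldb3 at -1.39, Actn2 at -1.03 and Nebl at -0.65, and none passed (adjusted p = 0.073 for Tcap and for Ttn). The M-band genes stood at -0.45 (Myom1) and -0.10 (Myom2), Myoz2 at -0.09 and Myot at 1.73. The signs of Myoz2 and Myom2 in footprints thus turn with the scaling.

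In footprints, most cardiomyocyte markers read lower and most fibroblast markers read higher in KO, and of both lists only Nppa passed. Summed footprints on 10 cardiomyocyte markers were 202354 and 256617 FPKM in KO and 293606 and 347392 FPKM in WT, with 7 of the 10 lower in both KO libraries and Nppa higher. Those on 10 fibroblast markers were 54693 and 70990 FPKM in KO and 25943 and 21680 FPKM in WT, with 9 of the 10 higher in both KO libraries. Over all tested genes, 12.1% lay lower in both KO libraries in footprints, 39.5% lay higher and 0.379% were called. In RNA the cardiomyocyte sums overlapped, at 32485 and 24065 FPKM in KO and 31497 and 33187 FPKM in WT, although 7 of the 10 were again lower in both KO libraries. These sums include 1 marker that rose, by a log2 change of 7.26, so they mix opposite changes. The fibroblast sums in RNA were 2782 and 2088 FPKM in KO and 1180.4 and 1581 FPKM in WT, with 5 of the 10 higher in both KO libraries and 1 lower. Over all tested genes, 18.6% lay lower and 44.2% higher in RNA, so these counts of lower and higher fibroblast markers are near the background. The fibroblast sums themselves did not overlap in RNA, and 2 of the 10 markers were called as higher (4.20% of all tested genes). Of 9 macrophage markers 6 overlapped in footprints and 3 lay higher in both KO libraries, while all 7 erythroid markers overlapped. In RNA 8 of the 9 macrophage markers lay higher in both KO libraries and 2 were called as higher (4.20% of all tested genes). Of 6 tested erythroid markers 3 lay higher there. Of 9 endothelial markers 6 lay higher in footprints, and 3 higher and 1 lower in RNA. Of 6 smooth muscle markers 3 lay higher and 2 lower in footprints, and 3 higher and 3 lower in RNA. No marker of these lists was listed at 0 in all 4 libraries. In heart tissue, fewer cardiomyocytes and less RNA per cardiomyocyte cannot be told apart, and the part of cell makeup in the results was not tested.

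Scaling each library to equal summed footprints on 18 thick and thin filament genes, a setting added with the results known, left Tcap at -0.81, Ttn at -0.67 and Ldb3 at -0.40. Actn2 stood at -0.05 there, while Nebl (0.34), Myom1 (0.54), Myom2 (0.88), Myoz2 (0.90) and Myot (2.66) stood above 0. None passed limma's test (lowest adjusted p = 0.055, for Myot). This scaling moves all genes of a library alike, and the sum gives most weight to the most abundant filament genes, so the signs of Nebl and Myom1 turned with the size of the shift. The median of all tested genes was 0.91 on this scale.

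Ratios between 2 of the genes within a library do not depend on how the libraries are scaled, and they are given as a description with no test. Footprints on Myom1 per footprint level of Ttn were 5.08 and 6.10 in KO and 2.52 and 2.30 in WT. Those on Myom2 per Ttn were 9.89 and 10.8 in KO and 4.38 and 2.82 in WT. Relative to titin, footprints on Myom1 were thus 2.31-fold and those on Myom2 2.94-fold higher in KO, with no overlap. Ttn itself changed by -1.28, while Myom1 (-0.08) and Myom2 (0.27) stood below the median of all tested genes (0.36). A gene at the median thus rose more relative to Ttn than either myomesin did. In RNA the same ratios overlapped, at 15.6 and 7.16 in KO and 6.06 and 8.10 in WT for Myom1, and at 6.57 and 4.79 in KO and 3.75 and 6.55 in WT for Myom2. The groups thus stood apart in footprints and overlapped in RNA, and the difference between the measures was not tested.

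Actn2 per Ttn was 29.2 and 25.2 in KO and 17.4 and 17.9 in WT for footprints, 1.54-fold higher, and overlapped in RNA. Tcap per Ttn showed the other pattern. In RNA it was 4.37 and 4.51 in KO and 7.58 and 11.8 in WT, while in footprints it was 2.14 and 1.27 in KO and 1.56 and 2.11 in WT. Per unit of titin, telethonin thus read 0.47 times its WT level in RNA without overlap, and overlapped in footprints. Within the Z-disc, Myoz2 per Actn2 was higher in KO in both measures: 0.18 and 0.30 in KO against 0.11 and 0.13 in WT for footprints, and 1.46 and 1.26 in KO against 0.92 and 0.92 in WT for RNA. Myot per Actn2 was 0.0074 and 0.0103 in KO and 0.0014 and 0.0010 in WT for footprints, 7.17-fold higher. In RNA this ratio was 0.0061 and 0.0036 in KO and 0.0027 and 0.0033 in WT, 1.59-fold higher, and rests on the low RNA level of Myot. Footprint changes of Actn2 (-0.66) and Myoz2 (0.29) stood below the median of all tested genes (0.36), and that of Myot (2.09) above it. A gene at the median thus rose more relative to Ttn than Actn2 did, and more relative to Actn2 than Myoz2 did. In RNA the change of Myoz2 (0.40) stood above the median of 0.22.

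**Figure D3:**
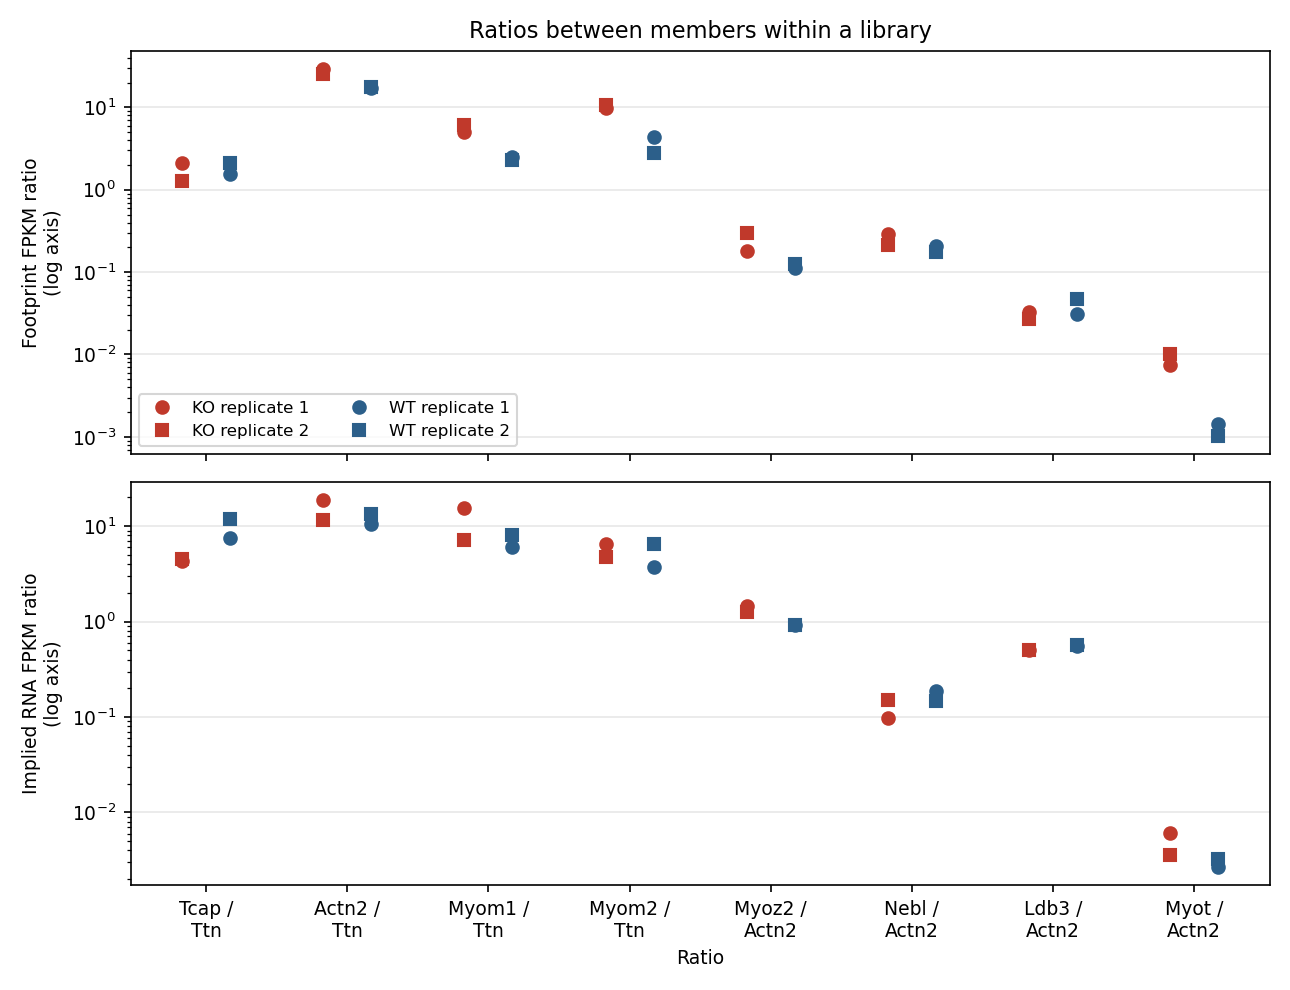
Ratios of FPKM between 2 genes within each library, for footprints (top) and implied RNA (bottom), on log axes with KO left of WT. Circles are replicate 1 and squares replicate 2. Myom1 and Myom2 per Ttn lie higher in both KO libraries for footprints and overlap for RNA, and Tcap per Ttn lies lower in both KO libraries for RNA.

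The order of footprint levels, per gene length, was led by Actn2 in both groups, with 43.3% to 46.9% of the summed FPKM of the 9 genes in KO and 52.6% to 55.2% in WT. In KO, Myom2, Myoz2, Nebl and Myom1 followed, each overlapping with the next, then Tcap, then Ttn and Ldb3, which overlapped, and last Myot. In WT the order was Myom2, Nebl, Myom1, Myoz2, Tcap, Ttn, Ldb3 and Myot. Myom2 and Nebl overlapped there, as did Myoz2 and Tcap. Tcap held 2.18% to 3.44% of the sum in KO and 4.74% to 6.53% in WT, and Ttn 1.61% to 1.72% in KO and 3.03% to 3.09% in WT.

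In RNA the order differed. Myoz2 led in KO (690.1 ± 80.0 FPKM, SD, n = 2), above Actn2 (507 ± 7.45), while in WT Actn2 (566 ± 35.7) and Myoz2 (522 ± 31.8) overlapped, as did Myoz2 and Tcap (454 ± 93.8). Tcap stood sixth by mean in KO, at 158 ± 54.5 FPKM. Ttn was the eighth and Myot the ninth in both groups. TE was highest for Myot and Nebl in KO, which overlapped, and for Nebl and Actn2 in WT. The spread of TE over the 9 genes was wide in WT, with 18.4 ± 0.32 for Nebl and 1.11 ± 0.27 for Ldb3. TE sets a footprint level against an RNA level from another library, and the sources used here do not give the gene length used for each.

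The KO libraries differed from each other in a direction that depended on the measure. All 9 genes had more footprints in KO replicate 2 than in KO replicate 1, by 1.04 to 2.57 times, against a median of 1.19 times over all tested genes. In RNA 4 of the 9 were higher in KO replicate 2, and the ratio ran from 0.57 to 1.65 (median of all tested genes 0.96). Myoz2, Myom1 and Myot were higher in KO replicate 2 in footprints and higher in KO replicate 1 in RNA. Their TE therefore differed 3.03, 2.87 and 3.69 times between the KO libraries.

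**Figure D4:**
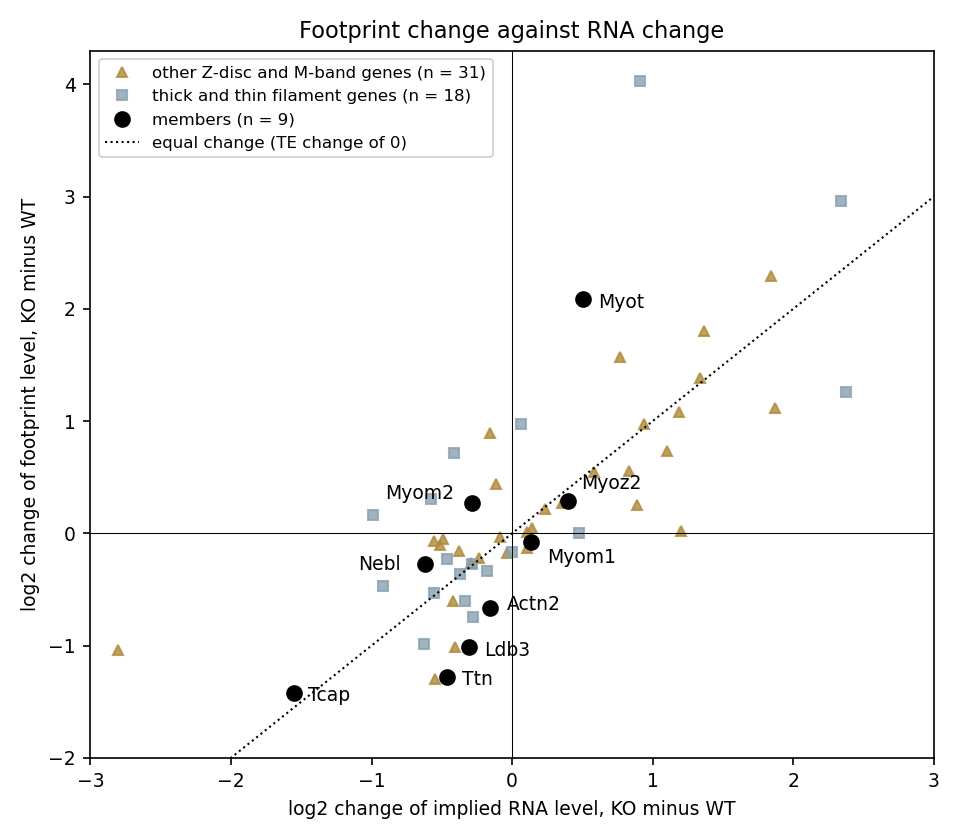
Log2 change of footprint level against that of implied RNA level, KO minus WT, for the 9 genes (black) and for the tested genes of the lists of other Z-disc and M-band genes and of thick and thin filament genes. The dotted line marks equal change. Ttn, Ldb3 and Actn2 lie below it, Tcap lies near it and Myot lies above it.

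Of 36 other listed genes of the Z-disc and M-band, 33 were tested for footprints and none passed: 4 lay lower in both KO libraries, 12 higher and 17 overlapped, with a median change of 0.22. Over all tested genes 12.1% lay lower and 39.5% higher, with a median of 0.36, so these counts are near the background. The 4 largest changes, among genes with a group mean of 10 FPKM or more, were all upward. Fhl1, a LIM domain protein, had 810.4 and 3269 FPKM in KO and 313 and 352 FPKM in WT (log2 change 2.29, adjusted p = 0.195 by limma). Leaving out KO replicate 1 put this at 3.29, and leaving out KO replicate 2 at 1.28. Synpo2l, an actin-associated Z-disc protein, had 131 and 340.04 FPKM in KO and 71.8 and 49.9 FPKM in WT (log2 change 1.80, adjusted p = 0.195), with 2.49 and 1.12 when the first and the second KO library were left out in turn. Pdlim3, a PDZ and LIM relative of Ldb3, had 147 and 165 FPKM in KO and 46.0 and 57.9 FPKM in WT (adjusted p = 0.118), and Ankrd23, an ankyrin repeat protein that binds titin, had 303 and 317 FPKM in KO and 86.4 and 162 FPKM in WT (adjusted p = 0.176). Pdlim3 thus read 2.98-fold higher where its relative Ldb3 read 2.02-fold lower. Its footprint change passed in genes of at least 10 FPKM in all libraries (adjusted p = 0.042), without small RNA genes, pseudogenes and unnamed models (0.038) and scaled to the filament genes (0.039).

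In RNA, 31 of the 36 were tested, 1 rose and 1 fell, against 5.73% called over all tested genes, and the median change was 0.11, against 0.22 over all tested genes. Both KO libraries lay lower for 10 of the 31 and higher for 13, against 18.6% and 44.2% of all tested genes. Synm, the intermediate filament protein synemin, was low and rose 3.65-fold (5.55 and 3.41 FPKM in KO, 1.23 and 1.15 FPKM in WT, adjusted p = 0.039 by limma). Leaving out KO replicate 1 ended the call (adjusted p = 0.061). Cmya5, which codes for myospryn, a titin and alpha-actinin binding protein, fell 6.98-fold, to 2.51 and 7.05 FPKM in KO, against 33.1 and 26.0 FPKM in WT (adjusted p = 0.032). RNA of Fhl1 (3.58-fold), Synpo2l (2.57-fold) and Ankrd23 (2.53-fold) read higher in KO without passing (adjusted p = 0.074 to 0.085). With 1 library left out in turn, the RNA change was 1.03 to 2.66 for Fhl1, 0.84 to 1.88 for Synpo2l and 0.90 to 1.78 for Ankrd23. In TE none of 31 passed, and the largest change was that of Cmya5, at 20.8 and 12.4 in KO and 5.12 and 4.43 in WT (log2 change 1.76, adjusted p = 0.777). The next largest were Des (-1.18), Bag3 (1.10) and Pdlim3 (0.82), with adjusted p = 0.868 for each.

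Thick and thin filament genes, the structures that titin and the Z-disc anchor, had a median footprint change of -0.20, with 9 of 18 lower in both KO libraries, 2 higher and none called. Over all tested genes 12.1% lay lower, 39.5% lay higher and 0.379% were called. Myh6, the adult alpha myosin heavy chain, had 23980 and 21995 FPKM in KO and 41850 and 49637 FPKM in WT (log2 change -0.99, adjusted p = 0.226 by limma). Myh7, the fetal beta chain in mouse, had 36.4 and 559 FPKM in KO and 9.78 and 6.31 FPKM in WT (log2 change 4.03, adjusted p = 0.218), which rests on KO replicate 2: the change was 2.07 when that library was left out and 5.98 when KO replicate 1 was. Tpm2, beta-tropomyosin, read 7.79-fold higher in footprints (adjusted p = 0.107, passing at 0.025 with the filter of 10 FPKM and at 0.020 without small RNA genes, pseudogenes and unnamed models), and Acta1, skeletal alpha-actin, 2.40-fold higher with overlap (adjusted p = 0.383). In RNA 2 of 18 rose and 1 fell, against 4.20% of all tested genes called as higher and 1.53% as lower. Both KO libraries lay lower in RNA for 8 of the 18 and higher for 3, against 18.6% and 44.2% of all tested genes. Acta1 rose 5.18-fold (adjusted p = 0.023), Tpm2 rose 5.06-fold (adjusted p = 0.026) and Lmod2, the thin filament nucleator leiomodin, fell 1.99-fold (adjusted p = 0.049). With no mean-variance trend none of the 5 calls in the partner lists held (adjusted p = 0.053 to 0.092). For Lmod2, leaving out either WT library ended the call (adjusted p = 0.225 and 0.331), as did the filter of 10 FPKM (0.058). Tnnt2, cardiac troponin T, read 1.89-fold lower in RNA (adjusted p = 0.142) and passed without KO replicate 1 (adjusted p = 0.032). In TE none of 18 passed, and the largest changes were those of Myh7 (3.28), Lmod2 (1.16), Tnni1 (1.14) and Acta1 (-1.11), with adjusted p = 0.813 to 0.939. That of Tnni1 hung on the WT libraries: it was 3.90 without WT replicate 1 and turned to -1.62 without WT replicate 2. That of Myh7 was 0.78 without KO replicate 2.

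Among 2777 named genes with footprints averaging 100 FPKM or more, those with a profile over the 4 libraries near that of Ttn included Macrod1 (an ADP-ribose hydrolase), Mrpl41 (a mitochondrial ribosomal protein), Car14 (a membrane carbonic anhydrase) and Nipsnap2. Their root mean square distances from Ttn were 0.072 to 0.107 on the log2 scale. Macrod1 had 43.1 and 78.6 FPKM in KO and 148 and 163 FPKM in WT. Nearest to Tcap were Slc25a20 (the mitochondrial carnitine carrier), Acaa2 (a thiolase of fatty acid oxidation) and Tango2, at 0.052 to 0.096. Slc25a20 had 435 and 495 FPKM in KO and 1029 and 1408 FPKM in WT. Likeness over 4 libraries is a description. None of these neighbours is a contractile gene, but the 9 genes themselves were left out of the search.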

How the data were processed

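Heart pieces of about 100 mg were lysed with cycloheximide at 100 µg/mL to hold the ribosomes, per the labels' protocols. The authors deposited footprint levels as FPKM and the TE as a ratio, 1 value per gene and library. The submitters' processing notes name STAR 2.7.4a and Bowtie 1.3.1 (aligners), Cufflinks 2.2.1 and HTSeq 0.13.5 (quantification), cutadapt 3.7 and FastQC 0.11.9, with GRCm38 (mm10). The sources used here do not give their order, the strand setting or the counted feature.

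FPKM over TE came out with 6 or fewer significant digits in 59296 of 59296 quotients (relative tolerance 1e-10), and a TE of 0 was taken as missing. Genes with FPKM of at least 1 in at least 2 libraries were tested as log2(FPKM + 1), which understates the change of low genes, with limma 3.58.1 (eBayes with trend, two-sided, no covariates) in R 4.3.3. RNA and TE were tested as log2 values. On simulated data the fit recovered the sizes of known changes. The footprint and TE fits called none of them and the RNA fit only some of the large ones. The simulation dealt the spreads to genes at random, without the relation of spread to level that the trend uses, so its calling rates need not hold for the data. A change that misses the threshold is not shown to be absent. Each group of samples follows the titles. Replicate numbers are not said to pair libraries, so no block was used. The deviations of same-numbered libraries from their group means correlated across genes at -0.06 for footprints, -0.22 for RNA and -0.02 for TE.

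All 9 genes are named, and in each list of partners the genes that passed and the 4 of largest change with footprints averaging 10 FPKM or more in a group. The genes, lists and tests were chosen with earlier results of these data known. Alternatives were other pseudocounts, filters and scalings, no trend, a replicate block and each library left out. With a library left out, the spread comes from the other group alone. A gene near Ttn in profile is not reported here. Coordinates and promoters are from RefSeq's GRCm38.p6 tables.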

Additional observations from a re-analysis of the deposited data

How the results depend on the processing

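Of the 38 genes higher and 19 lower in footprints, counts ran from 0 to 0 in each direction when any 1 library was left out, by limma, with 1010 to 2497 genes at an unadjusted p under 0.05. They were 143 and 39 with at least 10 FPKM in all libraries, 169 and 51 without small RNA genes, pseudogenes and unnamed models, 7 and 1 with no filter, and 23 and 11 with a pseudocount of 0.1. The count higher was 23 without trend, 118 with the replicate block and 170 scaled to the thick and thin filament genes, and the count lower was 30 with median-ratio scaling. The RNA counts of 526 and 192 became 174 and 84 with at least 10 FPKM in all libraries, 327 and 309 with median-ratio scaling, 50 and 17 without trend, and 1028 and 401 with the replicate block. With crossed replicate numbers, added after seeing the data, they were 2412 and 829. Leaving out 1 library gave 482 to 2632 higher and 222 to 1110 lower. TE calls, 0 in each direction, became 126 and 52 with the replicate block, and 1 lower without trend or without small RNA genes, pseudogenes and unnamed models. Leaving out 1 library gave 0 to 23 higher and 0 to 10 lower. Where the filter changed, the number of genes tested changed as well, and the cause of these shifts was not tested.

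Of the 9 genes, 1 passed in footprints (Tcap) with at least 10 FPKM in all libraries, where 143 rose and 39 fell of 8290 tested. Only Tcap passed, too, without small RNA genes, pseudogenes and unnamed models, where 169 rose and 51 fell of 12928. In RNA 0 passed with that FPKM filter (adjusted p = 0.053 for Tcap) or without trend (adjusted p = 0.083), 2 with crossed numbers (Tcap and Nebl), and 0 to 3 when 1 library was left out. The replicate block changed no call among the 9. Among the named partners it ended the RNA call of Lmod2 (adjusted p = 0.083), and brought past the threshold Fhl1 (0.044) and Tpm2 (0.022) in footprints, Fhl1 (0.0037), Synpo2l (0.025) and Ankrd23 (0.031) in RNA, and Myh7 in TE (0.010). Tcap, Ttn, Ldb3 and Actn2 stayed below 0 and Myot above 0 in footprints and RNA under every alternative run, except that Myot could not be fitted with at least 10 FPKM in all libraries.

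Signs that turned were all of changes that had not passed. With median-ratio scaling, footprints were -0.0854 for Myoz2 and -0.10 for Myom2, RNA was -0.0864 for Myom1 and TE was -0.0165 for Tcap. Scaling footprints to the thick and thin filament genes gave 0.34 for Nebl and 0.54 for Myom1. Leaving out 1 library in turn gave, in footprints, -0.39 to 0.97 for Myoz2, -0.61 to 0.46 for Myom1 and -0.20 to 0.74 for Myom2. In RNA it gave -0.0925 to 0.36 for Myom1 and -0.58 to 0.0103 for Myom2. In TE it gave -0.20 to 0.46 for Tcap, -0.91 to 0.69 for Myoz2, -0.97 to 0.55 for Myom1, -0.0433 to 1.15 for Myom2 and -1.62 to 3.90 for Tnni1. Depth in reads is unknown, so low values such as the RNA level of Myot carry an error that cannot be given.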
